A study of Mus musculus with 24 samples.

Results

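The 9 genes followed here carry lactate across the muscle membrane, interconvert lactate and pyruvate, or hydrate carbon dioxide, and were measured in the left gastrocnemius, a calf muscle of mixed fibre content, of mice with and without muscle pain. They are Slc16a1, Slc16a3, Bsg, Ldha, Ldhb, Car2, Car3, Car4 and Car14. They were taken from a fixed list of symbols and matched by Ensembl identifier, and all 9 were found among the 54532 genes counted. RNA was sequenced in 24 samples from WT mice of strain C57/BL6, 4 samples in each of 6 groups, and every sample is labelled 24 hr. Female and male controls were sedentary and received saline of pH 7.2 in the muscle, 20 µl per injection, in a pair of injections 5 days apart. Sedentary pain animals received pH 5.0 injections on the same schedule, with 6 min of electrically evoked contraction of that muscle before the last one. Active pain animals had running wheels for 8 weeks and then went through the same pain procedure. Each sex has 1 control group that serves both pain groups, so the comparisons with control share their control samples. Acid and contraction were given together, and no active group without pain is labelled, so these components cannot be told apart. The age of the animals is not given in the sources used here. The labels do not say that each library is a separate animal, and the p-values measure only the spread between these samples.

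Working muscle breaks glucose down to pyruvate, and lactate dehydrogenase turns pyruvate into lactate when the flux exceeds what mitochondria take up. The monocarboxylate transporters move lactate together with a proton, so that lactate export also carries acid out of the fibre, and they need the membrane protein basigin to reach the cell surface. Carbonic anhydrases interconvert carbon dioxide and bicarbonate, inside the fibre and on its surface, and so supply the bicarbonate buffer. Glycolytic fibres are known for the A subunit of lactate dehydrogenase and for MCT4, and oxidative fibres for the B subunit and MCT1.

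Total counts ranged from 17612139 to 34039699 per sample. All 9 genes passed the filter on low counts in every fit. Their counts ran from 38 (Car4 in 1 male sedentary pain sample) to 143002 (Car3 in 1 female control). The tissue label was checked with 6 skeletal muscle genes, whose summed level lay between 53752 and 108756 CPM (counts divided by library sizes scaled with TMM) in all 24 samples, with none at 0. Other cell types also differed between the groups in females. All 10 macrophage and monocyte markers passed the test as higher with sedentary pain than in controls, 5 of 7 tested neutrophil markers passed as higher (summed level 21.4 to 258 CPM against 0.898 to 4.80 CPM), and 6 of 8 adipocyte markers passed as lower. In males, 1 sedentary pain sample (replicate 1) and 1 active pain sample (replicate 2) had the highest neutrophil marker sums of their sex, 300.4 and 78.9 CPM, against 0.699 to 9.86 CPM in the other 10 male samples. In males 0 of the 10 macrophage and monocyte markers passed the edgeR test. Before adjustment, p was under 0.05 for 10 with sedentary pain and 9 with active pain (8.84% and 7.25% of all genes). Their median log2 fold changes were 2.58 and 2.26. The sums were 108 to 728 CPM and 159 to 418 CPM, against 52.9 to 105 CPM in male controls. In bulk tissue, fewer cells of a type and less RNA per cell cannot be told apart.

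Per kilobase of exon, which allows genes of different length to be compared, Ldha had the highest level of the 9. Its mean was 1156 CPM per kb over the 24 samples (SD 221), followed by Car3 at 988 (SD 394) and Bsg at 367 (SD 73.3). Slc16a3 at 68.8 CPM per kb (SD 19.6) and Ldhb at 56.6 (SD 43.1) came next, then Car14 at 14.7 (SD 4.02) and Slc16a1 at 6.06 (SD 1.36). Car2 at 2.77 CPM per kb (SD 0.733) and Car4 at 1.91 (SD 1.18) were lowest. The sample ranges of neighbours in this order overlapped except at 2 steps. Every Bsg value lay above every Slc16a3 value, and the lowest Slc16a1 value (4.12 CPM per kb) lay just above the highest Car2 value (4.04). Within a gene, the ratio of the highest to the lowest sample was 23.5 for Ldhb, 8.09 for Car4 and 5.35 for Car3, and 2.12 for Bsg and 2.14 for Ldha.

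**Figure D1:**
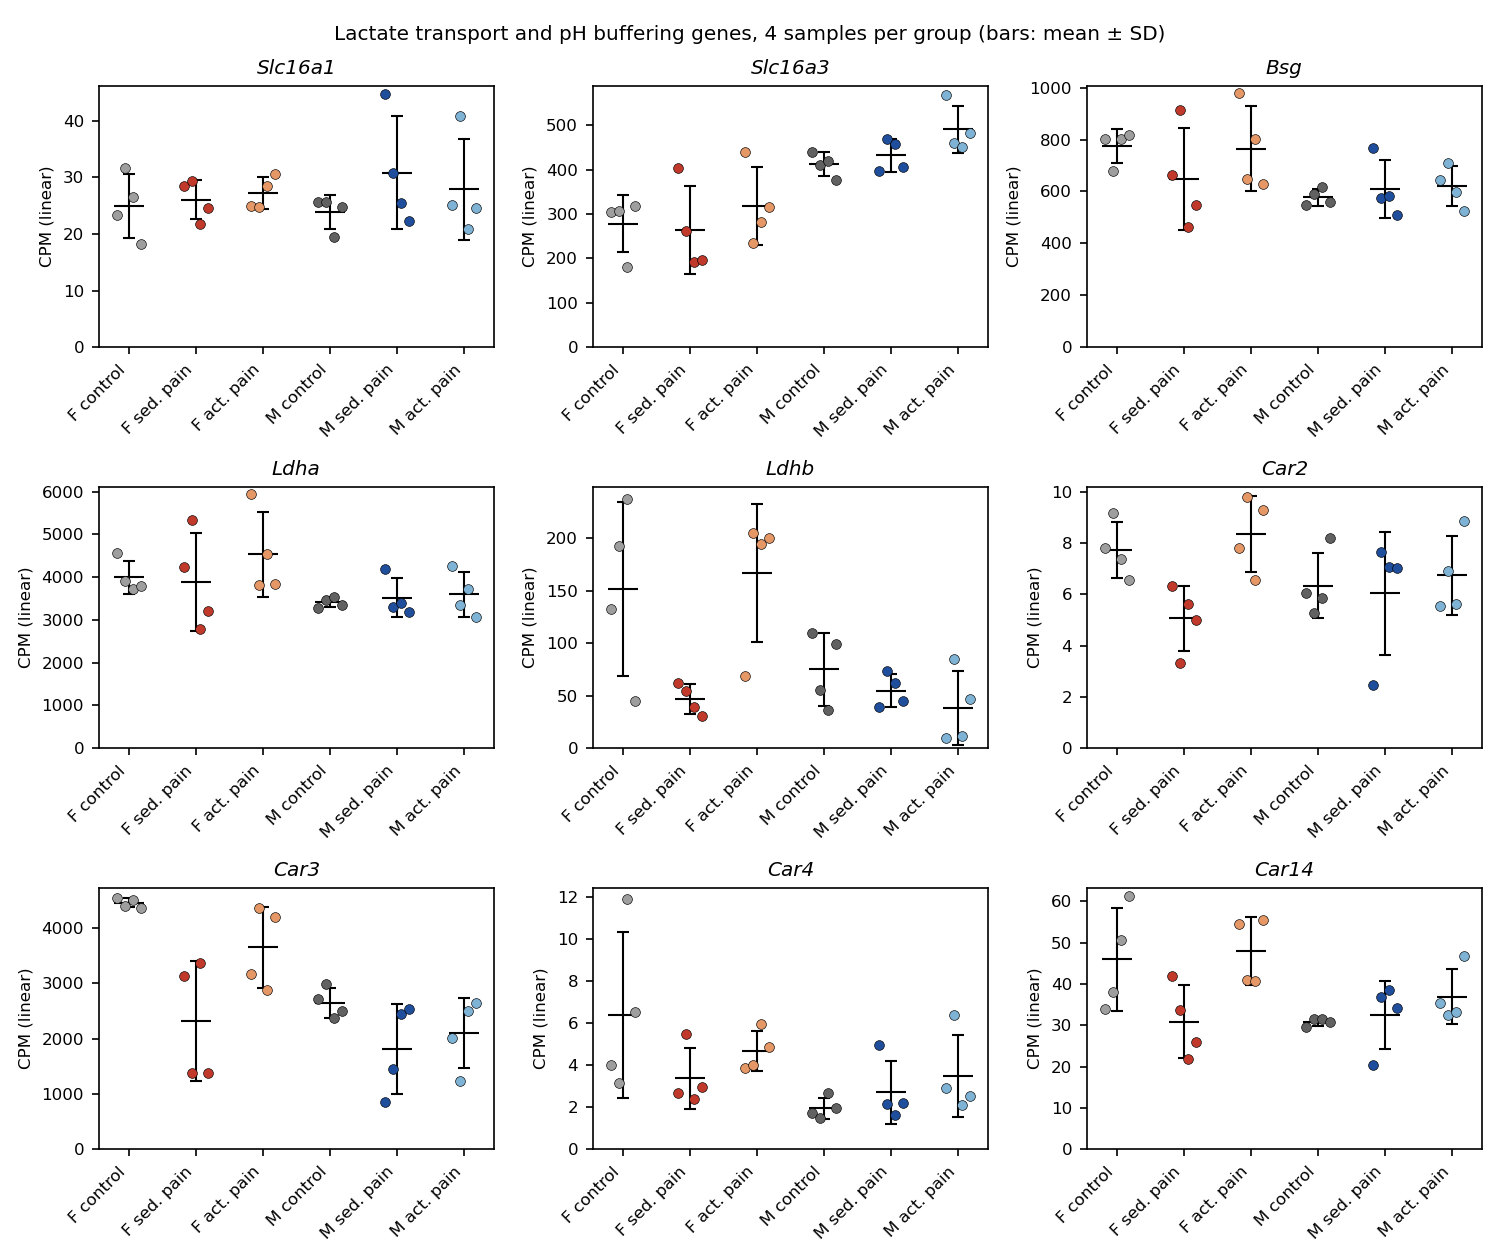
Level of each of the 9 genes (CPM, linear axis from 0) in every sample, with the mean and SD of each group of 4 (F, female; M, male; sed. pain, sedentary pain; act. pain, active pain). In females the Car3 and Car2 points of sedentary pain all lie below the control points, while Ldha and Slc16a1 overlap throughout.

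The first question was how sedentary animals with muscle pain differed from controls, and it was asked in each sex. In females, 3 of the 9 genes were lower with sedentary pain: Ldhb, Car3 and Car2. None was higher. Across all genes, 33.5% of the 14511 tested passed in this comparison and 13.9% passed as lower, so a large part of the transcriptome differed. The median log2 fold change was -0.59 over the 9 genes and -0.02 over all genes tested, and 8 of the 9 values were below 0. Muscle markers were lower at the median too, at -0.39 for 6 skeletal muscle genes (1 passed as higher, 1 as lower) and -0.43 for 8 fast fibre genes (Actn3 passed as lower), and their part in the values of the 9 genes was not tested. When counts were corrected for GC and exon length, an alternative added after seeing the data, 6 of the 9 passed as lower (also Bsg, Car4 and Car14), as did 20% of all genes. That correction shifted the median of all genes to -0.14 and the share of higher genes among those called from 58.5% to 43.9%. With 1 surrogate variable in the fit none of the 9 passed, and the log2 fold changes were -1.18 for Ldhb, -0.44 for Car3 and -0.32 for Car2 (edgeR, adjusted p = 0.56, 0.781 and 0.786). With only the 2 groups in the fit Ldhb passed and Car3 and Car2 did not (adjusted p = 0.0625 and 0.0765).

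Slc16a1 (ENSMUSG00000032902, chromosome 3, 104638668 to 104658462) encodes MCT1, the carrier associated with lactate uptake by oxidative fibres. In females it had 23.4, 31.6, 26.6 and 18.3 CPM in controls (replicates 1 to 4), 28.4, 29.4, 21.9 and 24.7 CPM with sedentary pain, and 24.9, 24.9, 28.5 and 30.6 CPM with active pain. The 3 female groups overlapped. The log2 fold change of sedentary pain against control was 0.05 ± 0.17 SE (95% interval -0.32 to 0.41; edgeR quasi-likelihood test, adjusted p = 0.843).

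Slc16a3 (ENSMUSG00000025161, chromosome 11, 120948480 to 120960868) encodes MCT4, which exports lactate from glycolytic fibres. Its female values were 305, 307, 181 and 319 CPM in controls, 404, 262, 192 and 197 CPM with sedentary pain, and 439, 235, 282 and 317 CPM with active pain. The groups overlapped, and control replicate 3 was as low as the lowest pain samples. The log2 fold change with sedentary pain was -0.09 ± 0.28 SE (95% interval -0.69 to 0.51; edgeR, adjusted p = 0.81). Bsg (ENSMUSG00000023175, chromosome 10, 79704491 to 79711969), the gene of basigin, had 802, 677, 802 and 816 CPM in female controls, 665, 914, 462 and 548 CPM with sedentary pain, and 979.7, 649, 802 and 627 CPM with active pain. Of the 8 female pain samples, sedentary replicate 2 and active replicate 1 lay above all controls, and 5 lay below all of them (sedentary replicates 1, 3 and 4 and active replicates 2 and 4). The Bsg log2 fold change with sedentary pain was -0.28 ± 0.21 SE and did not pass (edgeR, adjusted p = 0.31), and with the GC and length correction it was -0.72 and passed (adjusted p = 0.0222). In replicates 1 and 2 alone it was above 0, at 0.09.

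Of the lactate dehydrogenase subunits, Ldha (ENSMUSG00000063229, chromosome 7, 46841475 to 46855627) encodes the A subunit, which favours lactate formation. Its female values were 4567, 3911, 3727 and 3796 CPM in controls, 4239, 5344, 2781 and 3206 CPM with sedentary pain, and 5949.6, 3812, 4536 and 3843 CPM with active pain. The sedentary pain samples lay on both sides of the controls. The log2 fold change with sedentary pain was -0.06 ± 0.22 SE (95% interval -0.53 to 0.42; edgeR, adjusted p = 0.852).

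Ldhb (ENSMUSG00000030246, chromosome 6, 142490249 to 142507957) encodes the B subunit, found in heart and oxidative fibres, where lactate is used as fuel. Its female control values were 133, 192, 237 and 45.2 CPM. With sedentary pain they were 61.9, 54.6, 39.5 and 30.3 CPM, and with active pain 68.6, 205, 194 and 200.5 CPM. The sedentary pain samples lay below 3 of the 4 controls, and control replicate 4 fell among them. All 4 active pain samples lay above the sedentary pain samples, replicate 1 only just. The group means were 152 ± 82.9 CPM (SD, n = 4) in controls, 46.6 ± 14.3 CPM with sedentary pain and 167 ± 65.7 CPM with active pain.

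Ldhb fell by 1.72 ± 0.48 SE on the log2 scale with sedentary pain, a 3.30-fold lower level (edgeR, adjusted p = 0.0198). The call was lost without sedentary pain replicate 4 (-1.54, adjusted p = 0.0623) and without control replicate 2 (-1.58, adjusted p = 0.0514). The library names carry a number that separates replicates 1 and 2 from replicates 3 and 4, and what it stands for is not stated. Within those subsets the Ldhb log2 fold changes were -1.48 (adjusted p = 0.168) and -2.02 (adjusted p = 0.0744).

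For Ldha, Slc16a3 and Ldhb, the sequence just before the start site is shown because Ldha and Slc16a3 are known as genes induced by hypoxia through elements with the core ACGTG, and Ldhb is the lactate gene that passed the test. The 150 bases before each start site are from RefSeq (GRCm38.p6), read 5′ to 3′ on the gene's strand, with ACGTG on either strand in capitals (CACGTG holds it on both strands, as overlapping matches). They are chr7:46845654-46845803 on the plus strand for Ldha (the upstream of its start sites in the table), chr11:120948917-120949066 on the plus strand for Slc16a3 and chr6:142507958-142508107 on the minus strand for Ldhb.
Ldha: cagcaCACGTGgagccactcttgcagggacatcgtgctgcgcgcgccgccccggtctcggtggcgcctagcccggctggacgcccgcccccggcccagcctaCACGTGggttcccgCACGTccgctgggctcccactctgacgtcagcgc
Slc16a3: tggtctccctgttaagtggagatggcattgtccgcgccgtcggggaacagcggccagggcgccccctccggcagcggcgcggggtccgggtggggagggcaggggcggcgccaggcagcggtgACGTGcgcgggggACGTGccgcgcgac
Ldhb: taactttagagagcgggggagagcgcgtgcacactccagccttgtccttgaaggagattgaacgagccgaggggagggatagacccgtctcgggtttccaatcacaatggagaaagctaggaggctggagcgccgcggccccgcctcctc
ACGTG occurs at 3 places before Ldha (starting 145, 48 and 34 bases upstream of the start site), 2 of them within CACGTG, and at 2 places before Slc16a3 (27 and 14 bases upstream). These letters are not in the Ldhb window, nor in the entry for the other Ldha start site (chr7:46846832-46847131, 250 bases before to 50 after it). Of 32851 RefSeq windows of the same length, 11.2% hold ACGTG on either strand, 4.30% hold CACGTG, and 0.98% hold ACGTG at 2 or more places. A match is a stretch of letters and was not measured as a binding site. Variants of these letters were not counted, and GCGTG, for one, is in the Ldhb window. RefSeq promoter entries were matched for 6 of the 9 genes. Those not matched are Bsg, Car2 and Car3. In the matched entries of Slc16a1, Car4 and Car14 (250 bases before to 50 after the start site), ACGTG occurs as well. It occurs in 19.6% of all entries of that length.

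Of the carbonic anhydrases, Car3 (ENSMUSG00000027559, chromosome 3, 14863512 to 14872523) encodes the abundant cytosolic enzyme of muscle, liver and fat. It had 4544, 4406, 4508 and 4372 CPM in female controls, which lay close together, and 3136, 1375, 3379.7 and 1380.2 CPM with sedentary pain. With active pain it had 3169, 4358, 2889 and 4198 CPM. All sedentary pain samples lay below all controls, and they split into a higher pair (replicates 1 and 3) and a lower pair (replicates 2 and 4). All active pain samples also lay below all controls, the highest by a narrow margin. The lower Car3 pair also had the lowest share of counts from mitochondrial genes, which was 8.22%, 3.85%, 5.86% and 2.75% in sedentary pain replicates 1 to 4 and at least 8.59% in every control. With active pain it was 6.67%, 11.4%, 6.87% and 10.1%, and there replicates 1 and 3 were the lower ones in both measures. The part of this share in the Car3 values was not tested. Car3 fell by 0.96 ± 0.30 SE on the log2 scale with sedentary pain, a 1.94-fold lower level (edgeR, adjusted p = 0.0308). The call was lost in 5 of 12 fits with 1 sample left out: without sedentary pain replicate 2 (-0.77, adjusted p = 0.0623) or 4 (-0.76, 0.0779), and without control replicate 1 (-0.94, 0.0594), 2 (-0.96, 0.0594) or 4 (-0.98, 0.0579). Within replicates 1 and 2 the value was -0.99, and within replicates 3 and 4 it was -0.91, neither past the threshold (adjusted p = 0.217 and 0.159). Fat also expresses Car3. The adipocyte marker sums were 283 to 5865 CPM in female controls and 198 to 696 CPM with sedentary pain, and their part in the Car3 values was not tested.

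Car2 (ENSMUSG00000027562, chromosome 3, 14886273 to 14900770) encodes the fast cytosolic enzyme that is also abundant in red blood cells. It lies 13749 bases beyond the end of Car3 on the same strand. Its female values were 7.80, 9.17, 7.38 and 6.57 CPM in controls, 6.32, 3.33, 5.61 and 4.98 CPM with sedentary pain, and 7.79, 9.78, 6.55 and 9.27 CPM with active pain. All sedentary pain samples lay below all controls and below all active pain samples. Groups that do not overlap, with the pain group lower, made up 11% of all genes tested. Car2 fell by 0.62 ± 0.21 SE on the log2 scale with sedentary pain (1.54-fold lower; edgeR, adjusted p = 0.0421). This call was the least stable of the 3, lost in 9 of 12 fits that left out 1 sample, with adjusted p up to 0.111 (without control replicate 2, -0.52). It was also lost with no filter on low counts (adjusted p = 0.0599) and with all 24 samples in 1 fit (0.0803). With replicate number as a block in the fit it was lost too (edgeR, adjusted p = 0.0829). The subset values were -0.81 in replicates 1 and 2 and -0.41 in replicates 3 and 4 (adjusted p = 0.231 and 0.264). Erythrocyte markers, beside Car2, did not pass in this comparison (0 of 5 tested).

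Car4 and Car14 encode membrane enzymes that face the outside of the cell, where they act on bicarbonate at the fibre and capillary surface. Car4 (ENSMUSG00000000805, chromosome 11, 84957786 to 84966044) had 3.99, 3.16, 11.9 and 6.51 CPM in female controls, 2.65, 5.49, 2.37 and 2.97 CPM with sedentary pain, and 3.87, 3.99, 5.93 and 4.86 CPM with active pain. Control replicate 3 stood far above the others, and it also had the highest adipocyte marker sum of all 24 samples (5865 CPM). The log2 fold change with sedentary pain was -0.96 ± 0.40 SE and did not pass (edgeR, adjusted p = 0.0804). Within replicates 1 and 2 it was 0.17. Of 8 endothelial markers, 3 passed as lower in the same comparison, with sums of 209 to 238 CPM against 264 to 297 CPM in controls and none at 0, and their part in the Car4 values was not tested. Car14 (ENSMUSG00000038526, chromosome 3, 95897768 to 95904691) had 33.9, 38.1, 50.6 and 61.2 CPM in female controls, 41.9, 33.8, 21.8 and 25.9 CPM with sedentary pain, and 54.4, 40.9, 40.8 and 55.5 CPM with active pain. Controls and sedentary pain samples overlapped, with replicates 1 and 2 of both groups close together and replicates 3 and 4 far apart. The Car14 log2 fold change was -0.59 ± 0.23 SE (edgeR, adjusted p = 0.0678). It was 0.07 within replicates 1 and 2 and -1.24 within replicates 3 and 4 (adjusted p = 0.0111). Car14 shares 445 exon bases with Aph1a on the opposite strand, and the strand setting of the counting is not stated, so its values are uncertain.

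**Figure D2:**
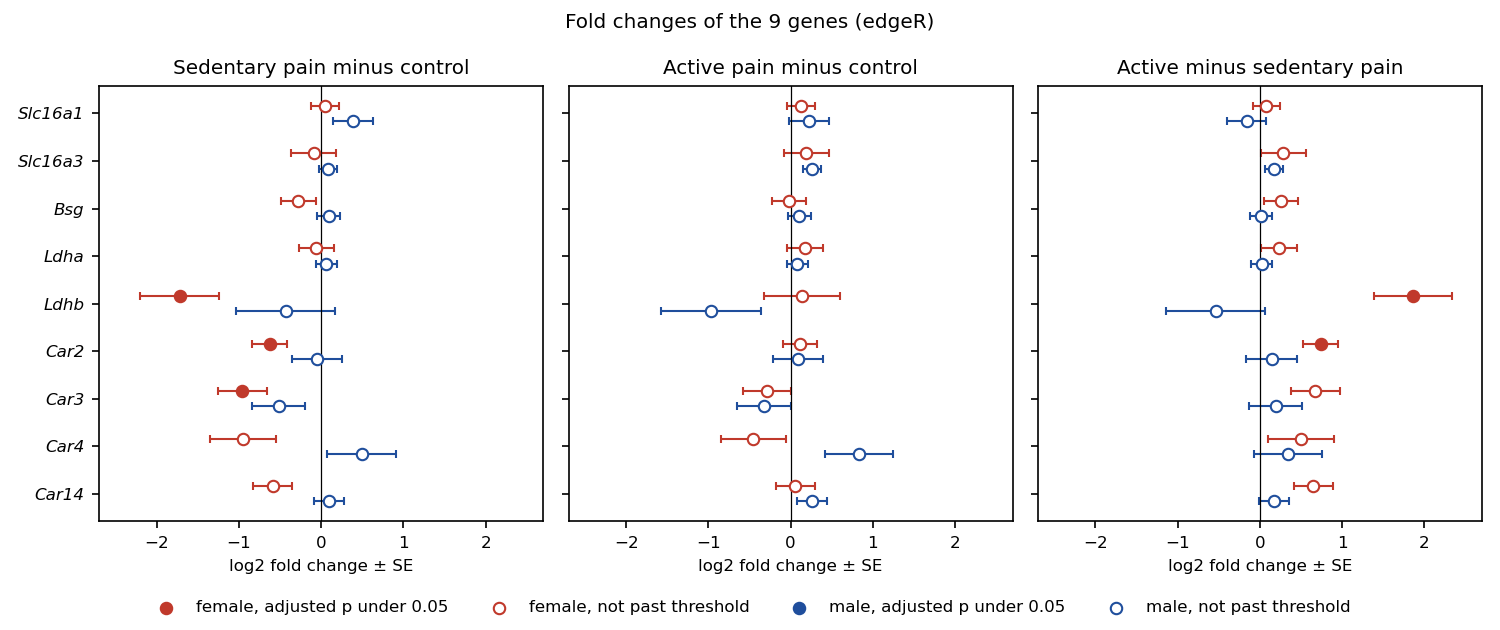
Log2 fold change of the 9 genes with its SE in each comparison, in females (red) and males (blue), with filled points where the edgeR adjusted p was under 0.05. Filled points appear for Ldhb, Car2 and Car3 in female sedentary pain against control and for Ldhb and Car2 in female active against sedentary pain.

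The next question was whether animals that had run before the pain procedure differed from sedentary animals with pain. In females, 2 of the 9 genes were higher in active than in sedentary pain, Ldhb and Car2, and none was lower. Of all genes tested, 11.9% passed in this comparison and 2.51% passed as higher. The median log2 fold change of the 9 genes was 0.50, against 0.01 over all genes, and all 9 values were above 0. Of the 10 macrophage and monocyte markers, 8 passed as lower in the same comparison (median log2 fold change -2.47; sums 166 to 379 CPM against 382 to 3924 CPM, none at 0). The median was 0.39 for the skeletal muscle and 0.41 for the fast fibre genes, of which 0 passed (edgeR; 3 of each list had p under 0.05 before adjustment). The part of these markers in the values of the 9 genes was not tested. Ldhb rose by 1.86 ± 0.48 SE (3.64-fold; edgeR, adjusted p = 0.034), and Car2 by 0.74 ± 0.21 SE (1.67-fold; edgeR, adjusted p = 0.0449). The active and sedentary pain samples were separate for both genes. Groups separate in that direction made up 5.42% of all genes. Car14 (0.65 ± 0.23 SE, adjusted p = 0.0834) and Car3 (0.67 ± 0.30 SE, adjusted p = 0.141) did not pass the edgeR test, nor did Car4 (0.50), Slc16a3 (0.28), Bsg (0.26), Ldha (0.24) or Slc16a1 (0.08).

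Both calls were lost with no filter on low counts (adjusted p = 0.0653 for Ldhb and 0.0682 for Car2), with only the 2 groups in the fit (0.0877 and 0.103) and with 1 surrogate variable (0.959 and 0.984; log2 1.43 and 0.49). Ldhb lost its call without any 1 of the 4 active pain samples or without sedentary pain replicate 3 or 4, at adjusted p up to 0.103 and log2 fold changes of at least 1.68. Car2 lost its call in 10 of the 12 fits that left out 1 sample (adjusted p up to 0.13, without active pain replicate 2). It also lost its call with all 24 samples in 1 fit (edgeR, adjusted p = 0.0721) and with replicate number as a block (0.081). The Ldhb log2 fold change was 1.23 within replicates 1 and 2 and 2.50 within replicates 3 and 4 (adjusted p = 0.404 and 0.0542), and that of Car2 was 0.84 and 0.58 (adjusted p = 0.41 and 0.171).

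Against controls, female active pain showed 0 of 9 genes past the edgeR threshold, as it did for 0 of all 14511 genes tested (0%). With p under 0.05 before adjustment there were 1020 genes (7.03%) and none of the 9, and DESeq2 called 125 genes and none of the 9. The log2 fold changes lay between -0.46 (Car4) and 0.19 (Slc16a3). For Ldhb the value was 0.14 ± 0.46 SE (95% interval -0.87 to 1.15). For Car3 it was -0.29 ± 0.30 SE, although its samples did not overlap with the controls. Such separation with the pain group lower made up 1.83% of all genes. No cell type marker passed in this comparison. Before adjustment, p was under 0.05 for 8 of 8 adipocyte markers (median log2 fold change -2.55). The same held for 7 of 7 tested neutrophil markers (4.27) and 7 of 10 macrophage and monocyte markers (1.45), and for none in the other marker lists. The part of these markers in the Car3 values was not tested.

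In males none of the 9 genes passed in sedentary pain against control, active pain against control or active against sedentary pain, where 0% of 14404 genes passed edgeR's test in each. Before adjustment, 1273, 1045 and 121 genes had p under 0.05 (8.84%, 7.25% and 0.84%), with 0, 1 and 0 of the 9 among them. DESeq2 called 270, 127 and 0 genes in them and none of the 9. The 1 gene was Slc16a3, at 440.5, 411, 419 and 376 CPM in controls, 396, 468, 458 and 405 CPM with sedentary pain and 568, 459.8, 452 and 483 CPM with active pain. All active pain samples lay above all controls, and the log2 fold change was 0.26 ± 0.11 SE (edgeR, adjusted p = 0.634). Separation in that direction made up 6.34% of all genes, and Car14 showed it too (0.26 ± 0.18 SE).

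Male Ldhb had 109.7, 55.0, 36.03 and 99.2 CPM in controls, 39.5, 73.6, 61.8 and 44.8 CPM with sedentary pain, and 10.1, 84.8, 11.9 and 46.4 CPM with active pain. The active pain group held both the lowest Ldhb values of the study and 1 value near the top of the male range. Its log2 fold changes were -0.43 ± 0.60 SE with sedentary pain and -0.97 ± 0.61 SE with active pain. Male Car3 had 2710.4, 2987, 2374 and 2493 CPM in controls, 849.7, 1443, 2439 and 2547 CPM with sedentary pain, and 2022, 1244, 2499 and 2640.2 CPM with active pain. The 3 lowest samples included both male samples with high neutrophil marker sums, whose mitochondrial shares of 4.53% and 5.97% were also the lowest in males (8.14% to 12.6% in the other 10). The remaining low sample, sedentary pain replicate 2, had a neutrophil sum of 2.71 CPM and a mitochondrial share of 11.3%. The Car3 log2 fold change with sedentary pain was -0.52 ± 0.32 SE. It was 0.05 within replicates 3 and 4, and -0.28 without replicate 1 of the sedentary pain group. In the same replicate 1, Car2 was at 2.46 CPM against 7.02 to 7.63 CPM in the other 3 sedentary pain samples, and Slc16a1 at 44.8 CPM against 22.4 to 30.8 CPM. Male active pain replicate 2 had the other high Slc16a1 value, 40.9 CPM against 20.9 to 25.2 CPM in the rest of its group. Without the sample in question, the Slc16a1 log2 fold change went from 0.39 to 0.15 with sedentary pain and from 0.22 to -0.01 with active pain. The part of neutrophil content or mitochondrial share in these values was not tested.

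Whether the sexes responded differently was tested with the interaction over all 24 samples. None of the 9 genes passed in any of the 3 comparisons, and 0% of 15103 genes did. Before adjustment, p was under 0.05 for 2 of the 9 for sedentary pain against control (Car4 and Car14; 9.57% of all genes), 1 for active pain against control (Car4; 2.03%) and 1 for active against sedentary pain (Ldhb; 14.7%). DESeq2 called 15, 3 and 133 genes and none of the 9. The interaction closest to the threshold was Ldhb in active against sedentary pain, where the male change was lower than the female change by 2.36 ± 0.81 SE on the log2 scale (unadjusted p = 0.00827, edgeR adjusted p = 0.235). In sedentary pain against control, all 9 male values lay above the female ones, by 0.09 to 1.41. The median was 0.41 over the 9 genes and 0.003 over all genes tested. Within replicates 1 and 2 the Car3 and Slc16a3 differences were -0.27 and -0.05. That of Ldha was -0.008 without male sedentary pain replicate 1. The largest of the 9 differences was that of Car4 (1.41 ± 0.60 SE, edgeR adjusted p = 0.476). The difference between the female and male results for Car3 was 0.41 ± 0.45 SE and for Car2 0.54 ± 0.38 SE, and neither passed (edgeR, adjusted p = 0.78 and 0.685).

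Controls of the 2 sexes were compared next. Car4 was lower in males, at 1.95 ± 0.504 CPM (SD, n = 4) against 6.38 ± 3.93 CPM in females, a log2 difference of -1.71 ± 0.43 SE (edgeR, adjusted p = 0.0321). It was the only 1 of the 9 past the threshold, where 2.83% of 15103 genes passed and 1.28% passed as lower. All male control values of Car4 (1.74, 1.47, 2.65 and 1.95 CPM) lay below all female ones. The call was lost in 5 of 24 fits that left out 1 sample, among them the fit without female control replicate 3 (-1.22, adjusted p = 0.226). The other calls lost were without female control replicate 4 (-1.67, 0.0791) and without male control replicate 1 (-1.65, 0.113), 2 (-1.59, 0.121) or 4 (-1.71, 0.102). The Car4 call was also lost with replicate number as a block in the fit (-1.70, edgeR adjusted p = 0.0632). The difference was -1.19 within replicates 1 and 2 and -1.98 within replicates 3 and 4 (adjusted p = 1.0 and 0.00894). Adipocyte markers moved alongside, with 2 of 8 lower in male than in female controls (Fabp4 and Retn), a summed level of 138 to 673 CPM against 283 to 5865 CPM, and none at 0. Erythrocyte marker sums were 127 to 231 CPM in male and 160 to 324 CPM in female controls, and 0 of 5 tested passed. The part of either marker list in the Car4 difference was not tested.

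The male and female control samples were also separate for Car3, Car14, Ldha and Bsg, all lower in males, and for Slc16a3, higher in males, without passing the test. Separate groups made up 22.3% of all genes in this comparison, 9.3% lower and 13% higher in males. The Slc16a3 means were 412 ± 27.0 CPM in male and 278 ± 64.7 CPM in female controls (log2 difference 0.57 ± 0.22 SE, edgeR adjusted p = 0.203). The Car3 means were 2641 ± 269 CPM in male and 4457 ± 81.6 CPM in female controls (-0.75 ± 0.32 SE, edgeR adjusted p = 0.264).

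The balance between partner genes within a sample does not depend on how libraries are scaled. The ratio of Ldhb to Ldha was 0.0291, 0.0492, 0.0636 and 0.0119 in female controls, 0.0146, 0.0102, 0.0142 and 0.00948 with sedentary pain, and 0.0116, 0.0537, 0.0428 and 0.0522 with active pain. Of the sedentary pain ratios 2 lay below all controls, and 3 of the 4 active pain ratios lay above all sedentary pain ratios. The mean log2 ratio differed by -1.44 between sedentary pain and control and by 1.53 between active and sedentary pain (exact permutation test, two-sided, p = 0.0857 for each, adjusted p = 0.514 over 12 tests). With 4 against 4 samples the smallest possible p is 0.0286. In males the lowest ratios were 0.00238 and 0.00322, in active pain replicates 1 and 3, against 0.0102 to 0.0335 in controls. The ratio of Slc16a1 to Slc16a3 differed by at most 0.32 on the log2 scale between groups of 1 sex, and none of its 6 comparisons passed (exact permutation p from 0.4 to 0.857, adjusted p at least 0.771).

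Ldhb tracked slow fibre markers across samples. Over the 24 samples, log2 Ldhb and the log2 summed level of 7 slow fibre genes (Myh7, Tnnt1, Tnni1, Tnnc1, Myl2, Myl3 and Atp2a2, contractile and calcium-pump genes of oxidative fibres) had a Pearson r of 0.88 and a Spearman rho of 0.83. The r was 0.87 without the 2 samples farthest from the median of the marker sum, 0.85 within replicates 1 and 2, and 0.93 within replicates 3 and 4 (12 samples each). The points share their libraries and their scaling, and the 6 groups are pooled. The slow fibre sums in replicates 1 to 4 were 358, 998, 1303 and 344 CPM in female controls, 342, 315, 219.7 and 143 CPM with sedentary pain, and 92.2, 724, 3389.5 and 1475 CPM with active pain. The samples with the lowest Ldhb of their groups, control replicate 4 and active pain replicate 1, also had the lowest slow fibre sums, although control replicate 1 had nearly the same sum as control replicate 4. Of these 7 markers, 0 passed in female sedentary pain against control (median log2 -1.48, edgeR; 1 at an unadjusted p under 0.05) and 0 in active against sedentary pain (median 2.64; 7 at an unadjusted p under 0.05). How far the fibre content of the sampled piece accounts for the Ldhb values was not tested.

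**Figure D3:**
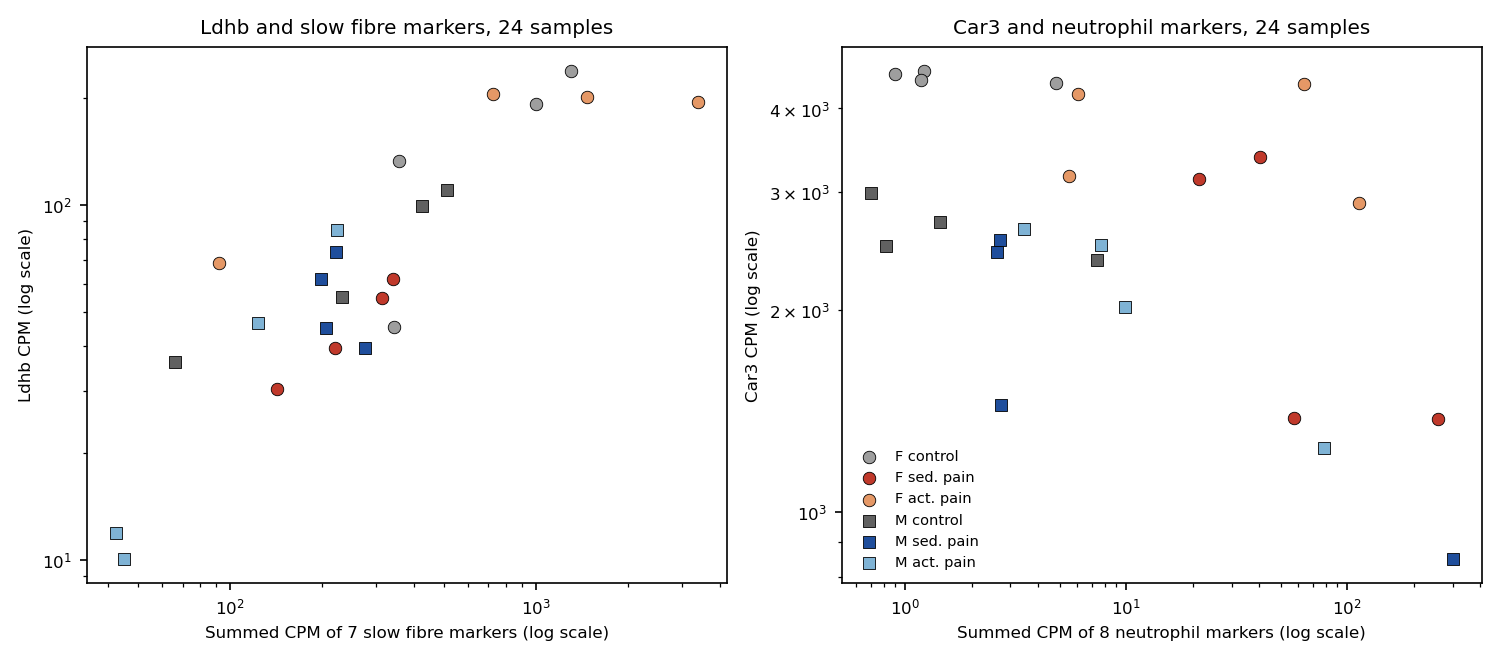
Left, Ldhb level against the summed level of 7 slow fibre markers, and right, Car3 level against the summed level of 8 neutrophil markers, in CPM on log axes for the 24 samples (circles, female; squares, male). Ldhb rises with the slow fibre sum (r = 0.88), and the lowest Car3 values include male sedentary pain replicate 1, which has the highest neutrophil sum (300.4 CPM).

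Among the other members, r with the slow fibre sum ran from -0.52 (Slc16a3, rho = -0.58) to 0.46 (Car4, rho = 0.43). For Car3 it was 0.39 (rho = 0.51). Members were also compared with each other and with other marker sums. Bsg and Ldha varied together over the 24 samples (r = 0.88, rho = 0.87, and r = 0.81 without the 2 farthest samples), and they did so after the group means were removed (r = 0.88). Car3 and Car2 had r = 0.69, which was 0.43 without the 2 farthest samples. With the neutrophil sum, Car3 had r = -0.55 and Car2 r = -0.59, and these were -0.30 and -0.21 without the 2 samples with the most extreme sums. Spearman's rho over all 24 was -0.45 for Car3 and -0.43 for Car2. Within replicates 1 and 2 the r was -0.63 for Car3 and -0.58 for Car2, and within replicates 3 and 4 it was -0.31 and -0.60. Car4 and the adipocyte sum had r = 0.69 and rho = 0.56, and r = 0.43 without the 2 farthest. With the erythrocyte sum, Car4 had r = 0.68 and rho = 0.77, and Bsg had r = 0.72 and rho = 0.71.

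The protein-coding genes most like each member were found by Pearson correlation of log2 CPM over the same 24 samples, among 10581 genes whose log2 CPM averaged 1 or more. For Ldhb they were Arpp21 (r = 0.97), Myoz2 (0.96), a calcineurin-binding protein of slow fibre sarcomeres, and Khdrbs3 (0.95). For Ldha they were Aldoa (0.97), the muscle aldolase of glycolysis, Dusp23 (0.94) and Tufm (0.94). For Car3 they were Hmgn5 (0.93), Maob (0.91) and Krt222 (0.91), and for Car2 Paip2 (0.89), P2ry1 (0.87) and Tpd52l1 (0.86). The closest genes to Slc16a3 were Pkdcc (0.91), Gna11 (0.89) and Nt5dc3 (0.88), and to Bsg Mettl26 (0.91), Ndufb6 (0.91) and Gstm1 (0.90). For Car4 they were Mecr (0.90), Dtnbp1 (0.86) and Dbi (0.85). The maxima for Slc16a1 (Efna1, 0.81, Ankrd2, 0.81, and Ung, 0.80) and Car14 (Rmnd1, 0.81, Acads, 0.80, and Tmem70, 0.77) were lower.

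The wider pathway was described with 79 other genes in 7 lists, of which 64 were tested in the females. In sedentary pain against control, 12 of these were higher and 14 lower (33.5% of all genes passed, 19.6% as higher and 13.9% as lower), with a median log2 fold change of -0.27 against -0.02 over all genes. In active against sedentary pain 2 were higher and 7 lower (2.51% and 9.41% of all genes), and in active pain against control and in the 3 male comparisons 0 passed (edgeR; 9, 5, 7 and 0 before adjustment, and 1, 1, 1 and 0 with DESeq2, for female active pain, male sedentary pain and male active pain against control and male active against sedentary pain).

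Among the other monocarboxylate carriers and chaperones, 1 of 8 tested genes was higher and 1 lower. Emb, the gene of embigin, the alternative chaperone of these carriers, had 36.4 ± 29.3 CPM with sedentary pain against 2.68 ± 0.908 CPM in controls, with no overlap (15.3% of all genes were separate and higher), a log2 fold change of 3.73 ± 0.60 SE (edgeR, adjusted p = 0.00282). Emb was lower again with active than with sedentary pain, by -2.55 ± 0.57 SE (edgeR, adjusted p = 0.0328). Bsg, the main chaperone, had log2 fold changes of -0.28 and 0.26 in the same comparisons. The male pain samples also all lay above the male controls for Emb, as for 3.95% of all genes with sedentary pain and 6.34% with active pain, without passing (sedentary pain 1.75 ± 0.56 SE, edgeR adjusted p = 0.352). Slc16a12, a creatine carrier of the same family, fell by 1.49 ± 0.48 SE on the log2 scale (edgeR, adjusted p = 0.0344). Macrophage and monocyte marker sums in the sedentary pain samples were 382, 648, 3114 and 3924 CPM against 69.4 to 158 CPM in controls and 166 to 379 CPM with active pain, and their part in the Emb values was not tested.

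Of the other carbonic anhydrases, 2 of 8 tested genes were lower with sedentary pain. Car5b, a mitochondrial enzyme, fell from 19.9 ± 20.9 CPM (1.94 to 44.1) to 2.34 ± 1.71 CPM (1.13 to 4.83), by 3.10 ± 0.91 SE on the log2 scale (edgeR, adjusted p = 0.0248), and the groups overlapped. Car1, a red cell enzyme, fell by 0.99 ± 0.35 SE from a level near 1 CPM (edgeR, adjusted p = 0.0485).

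Of 14 tested proton and bicarbonate transporters, 3 were higher and 1 lower. The chloride-bicarbonate exchanger gene Slc4a3 went from 3.66 ± 0.274 to 9.81 ± 3.04 CPM (log2 1.40 ± 0.23 SE, edgeR adjusted p = 0.00285), and its groups did not overlap, as for the 15.3% of all genes given above. Slc9a9, an endosomal sodium-proton exchanger, rose by 1.85 ± 0.41 SE (edgeR, adjusted p = 0.0078).

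The dipeptides carnosine and anserine are a further proton buffer of muscle. Of 8 tested genes around them, 4 were higher and 1 lower with sedentary pain. Slc15a3, a lysosomal peptide transporter known from immune cells, rose by 5.92 ± 1.05 SE on the log2 scale (edgeR, adjusted p = 0.00354), and Cndp2, a cytosolic dipeptidase, by 2.25 ± 0.41 SE (edgeR, adjusted p = 0.00369). Slc36a1, a lysosomal proton-coupled amino acid transporter, rose by 0.78 ± 0.26 SE (edgeR, adjusted p = 0.037). Carnmt1, the methyltransferase that makes anserine from carnosine, had 37.1 ± 21.6 CPM against 79.2 ± 17.4 CPM in controls and fell by 1.11 ± 0.39 SE on the log2 scale (edgeR, adjusted p = 0.0454). In the phosphocreatine list 2 of 6 tested genes were higher and none lower, the brain-type creatine kinase gene Ckb (2.22 ± 0.51 SE, adjusted p = 0.00972) and Gamt, which makes creatine (0.94 ± 0.30 SE, adjusted p = 0.0352; edgeR). The macrophage and monocyte marker sums given for Emb moved in the same direction as the higher genes of the lists described after it, and their part in those values was not tested either.

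Of 12 tested genes that decide the fate of pyruvate, 5 were lower, 1 was higher and 6 did not pass. Pdha1, a subunit of pyruvate dehydrogenase, went from 585 ± 61.9 to 283 ± 114 CPM (log2 -1.07 ± 0.26 SE, edgeR adjusted p = 0.0117), and it rose by 0.86 ± 0.26 SE from sedentary to active pain (edgeR, adjusted p = 0.0499). Pcx, pyruvate carboxylase, fell by 1.60 ± 0.38 SE (edgeR, adjusted p = 0.0109). Pdk1, a kinase that turns pyruvate dehydrogenase off, fell by 0.78 ± 0.17 SE (edgeR, adjusted p = 0.00734), and Pdk3, another kinase of that family, rose by 2.45 ± 0.48 SE (edgeR, adjusted p = 0.00495).

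Of 8 regulators and the lactate receptor, 4 were lower and 1 higher with sedentary pain. Epas1, which encodes the hypoxia factor HIF-2 alpha, fell by 0.86 ± 0.18 SE (edgeR, adjusted p = 0.00608), Ppara, a regulator of fat oxidation, by 2.66 ± 0.80 SE (adjusted p = 0.0282), and Hcar1, the lactate receptor known from fat cells, by 2.80 ± 0.87 SE (adjusted p = 0.0308). Myc rose by 1.28 ± 0.33 SE (edgeR, adjusted p = 0.0148). Car5b, Pcx and Hcar1 had their widest range in the controls, where the adipocyte marker sum ran from 283 to 5865 CPM, against 198 to 696 CPM with sedentary pain. That part was not tested.

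**Figure D4:**
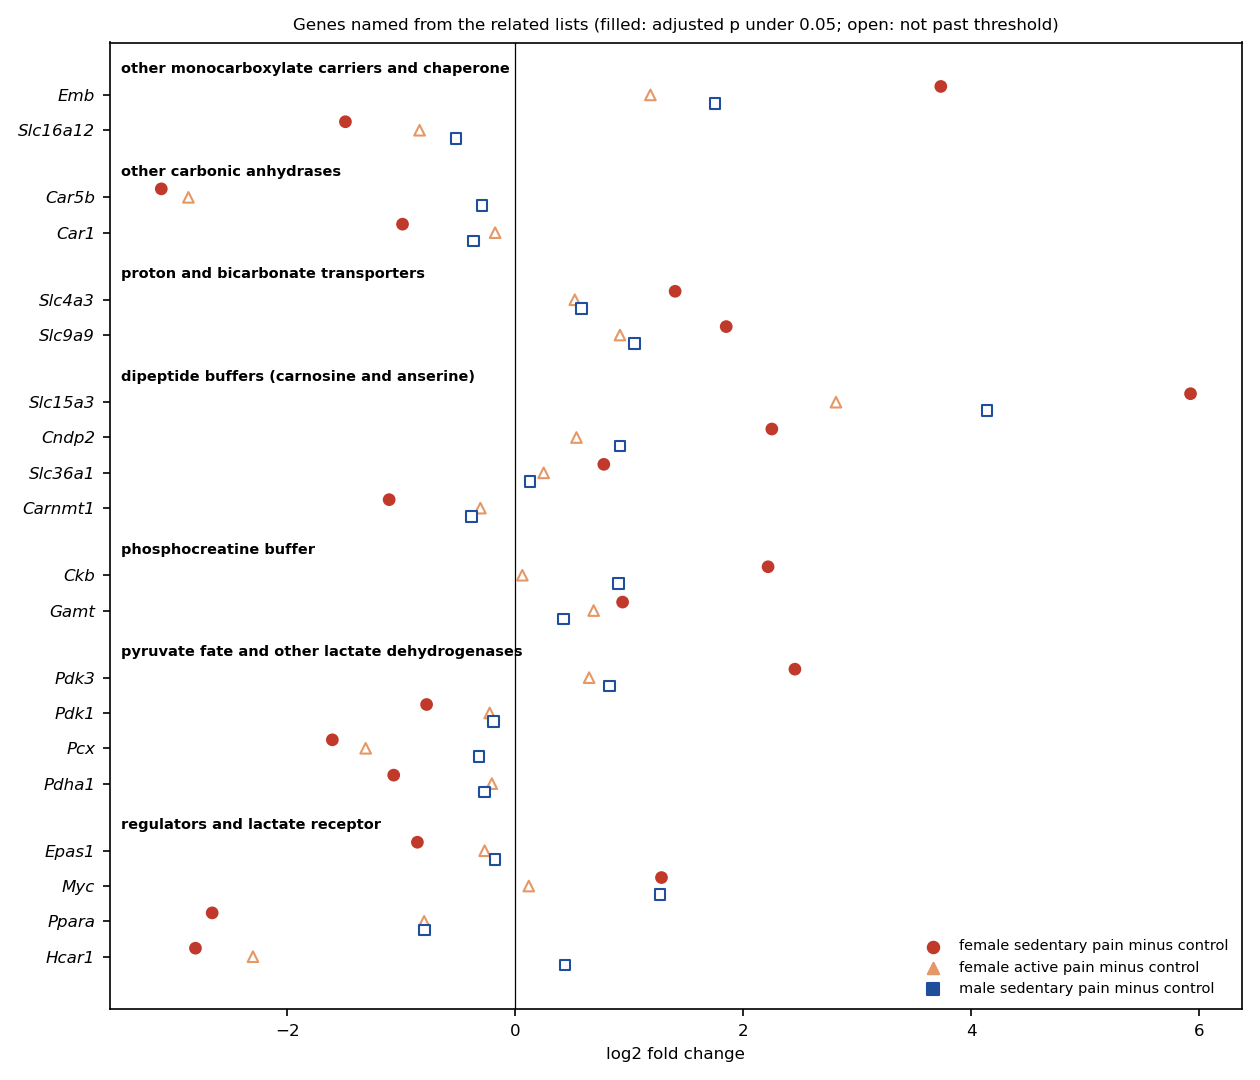
Log2 fold change of up to 4 genes per related list (of those with the smallest p in female sedentary pain against control), for female sedentary pain (circles), female active pain (triangles) and male sedentary pain (squares), each against control. Filled symbols passed the edgeR test, which only the female sedentary pain values did, from -3.10 for Car5b to 5.92 for Slc15a3.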

How the data were processed

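Gene expression was measured by RNA sequencing of 24 muscle samples. The authors deposited unnormalized whole-number counts, 1 for each Ensembl gene in each sample, from Illumina TruSeq stranded libraries with paired reads of 100 bases, per the labels' protocols. The submitters' processing notes name HISAT2 2.1.0, featureCounts, Salmon 0.9.1 and DESeq2 1.24.0 and the builds mm10 and GRCm38.p6, with no order or role, and the strand setting is not given in the sources used here. Symbols were found for 54409 of 54532 genes, and positions are from GENCODE M21 (GRCm38).

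Counts were scaled by TMM, passed through filterByExpr (minimum count 10) and tested two-sided with edgeR 4.0.16 robust quasi-likelihood F tests in R 4.3.3. Each sex was fitted with its 12 samples. Interactions and the comparison of controls used all 24. P-values were adjusted by Benjamini-Hochberg over all genes tested, at 0.05. An SE is the log2 fold change divided by the root of F. Log2 CPM has a prior count of 2. Ratios were compared by exact permutation over 70 arrangements. The scripts were tested on simulated data.

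The 9 genes and the lists were chosen with earlier results of these data known. Named genes are the 9, the up to 4 genes of each related list with the smallest p in female sedentary pain against control among those past the threshold in any comparison within a sex, and the 3 genes most correlated with each of the 9. Some genes that this rule names are not reported here. Slc4a1 and Ckm are in a related list and also in a marker list.

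Alternatives were other scalings (relative log expression, upper quartile), DESeq2 1.42.0, no count filter, no robust step, other sample sets, the replicate block, a library-number batch term, 1 surrogate variable (sva 3.50.0) and each sample left out. Added after seeing the data were a GC and length correction with splines of 5 degrees of freedom, with and without the block, and the library-number subsets (20 or lower, 25 or higher). Figures were drawn with matplotlib 3.10.9.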

Additional observations from a re-analysis of the deposited data

Results flagged for a closer look

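In 66 groups of 4 samples (9 genes and 2 ratios in 6 groups), 6 samples stood so far from the other 3 of their group that the gap to the nearest took up nearly the whole range of the group (Dixon's 95% limit, which chance passes in about 1 in 20 groups). Slc16a1 was at 19.5 CPM in male control replicate 3, where the others had 24.9 to 25.7 CPM. Slc16a3 was at 181 CPM in female control replicate 3, where the others had 305 to 319 CPM. Bsg was at 677 CPM in female control replicate 2, where the others had 802 to 816 CPM. Ldhb was at 68.6 CPM in female active pain replicate 1, where the others had 194 to 205 CPM. Car2 was at 2.46 CPM in male sedentary pain replicate 1, where the others had 7.02 to 7.63 CPM. The ratio of Slc16a1 to Slc16a3 was 0.0891 in male active pain replicate 2, where the others had 0.0444 to 0.0512.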

How the results depend on the processing

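Of the 6 member values past the threshold, 0 changed sign under any alternative, while 55 of the 96 others did under at least 1 (the largest of these was 0.96 on the log2 scale). The 3 genes called in female sedentary pain against control became 0 with 1 surrogate variable, 0 in replicates 1 and 2 alone, 2 others (Car4 and Car14) in replicates 3 and 4 alone, 1 (Ldhb) with only the 2 groups compared, and 6 with the GC and length correction, with or without the replicate block. The replicate block alone kept the calls of Ldhb and Car3 and lost that of Car2 (adjusted p = 0.0829). Leaving out 1 sample gave 0 to 4, with 0 without sedentary pain replicate 4 and without control replicate 2. The 2 genes called in active against sedentary pain became 0 with no count filter, 1 surrogate variable, only the 2 groups or replicates 1 and 2 alone, 1 (Ldhb) with the replicate block or all 24 samples, 1 (Car14, not 1 of the 2) in replicates 3 and 4 alone, and 4 with the GC and length correction and block. Leaving out 1 sample gave 0 to 3. For male against female controls the 1 call became 0 with the replicate block, 0 in replicates 1 and 2 alone and 2 with 1 surrogate variable, and leaving out 1 sample gave 0 to 1. The sex interaction of sedentary pain went from 0 to 1 (Car14) in replicates 3 and 4 alone. The counts of the other 6 comparisons were the same under all their alternatives.

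All genes called in female sedentary pain against control (4867, 58.5% higher) ranged from 61 with 1 surrogate variable to 5773 with DESeq2, and in active against sedentary pain (1730, 21.0% higher) from 0 to 3010; with 1 sample left out they ranged from 2486 to 6674 and from 0 to 4316. The GC and length correction gave 5176 (43.9% higher) and 1886 (33.7% higher), and shifted the all-gene medians to -0.14 and 0.11. Related genes called in active against sedentary pain (9) ranged from 0 to 21 (0 to 28 with 1 sample left out), and in sedentary pain against control (26) from 0 with 1 surrogate variable to 29 (15 to 32). The cause was not tested for any of these changes. Same-numbered samples were not clearly paired. Their residual correlations ran from -0.32 to 0.42 in females (mean 0.11, 6 of 12 pairs over 0.1). In males they ran from -0.65 to 0.59 (mean 0.01, 4 of 12). Car4 and Car2 had the lowest counts of the 9 genes, from 38 to 304 and from 57 to 305, and the part of count level was not tested.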

Other observations

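Car13, Car1, Car3 and Car2 lie in a row on chromosome 3 (14641727 to 14900770, GRCm38), and this stretch was looked at after its values were seen. In female sedentary pain against control, Car1, Car3 and Car2 passed as lower, with log2 fold changes of -0.99, -0.96 and -0.62. Car13, a cytosolic enzyme at the other end of the row, had 0.72 ± 0.56 SE (edgeR quasi-likelihood test, adjusted p = 0.327). The next genes before Car13, 1810022K09Rik and E2f5, had 0.05 (adjusted p = 0.806) and 0.31 (adjusted p = 0.312). The next gene after Car2, Gm9733, passed as higher (adjusted p = 0.0026; mean 2.95 CPM, against 0.0366 CPM in controls, too low for a fold change), and as lower in active against sedentary pain (-2.53, adjusted p = 0.0356). In active against sedentary pain, the values were 0.81 for Car1, 0.67 for Car3, 0.74 for Car2 and -1.19 for Car13, of which Car2 passed (edgeR, adjusted p = 0.0449).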
